A study of Homo sapiens with 12 samples.

Results

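The Kruppel-like factors are a family of zinc finger transcription factors, and 10 of their genes, KLF2, KLF4, KLF5, KLF6, KLF7, KLF9, KLF10, KLF11, KLF13 and KLF16, were followed here among the 21446 genes of the deposited tables. The genes were taken by symbol, with earlier results of these data known. RNA was sequenced from LN229, an established human glioblastoma line labelled IDH wildtype, in 12 libraries. The study's methods describe extraction of total RNA and libraries made from its mRNA with an mRNA kit. The control group held 6 libraries of cells labelled as not treated, which the study's text describes as given vehicle, and the metformin group held 6 libraries of cells given 100 mM metformin, a biguanide drug used in diabetes, for 5 h. All cells grew in DMEM with fetal bovine serum and antibiotics, and the study's methods call the 12 cultures independent experiments of this 1 line. The comparison asked how the transcriptome of the line differed when metformin was added.

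Kruppel-like factors bind GC-rich and CACCC-containing stretches of promoters through a row of zinc fingers at the C-terminal end of the protein. One branch, here KLF2, KLF4, KLF5, KLF6 and KLF7, works mainly by recruiting acetyltransferases to activate genes, although KLF4 also represses. The other branch, here KLF9, KLF10, KLF11, KLF13 and KLF16, binds the corepressor SIN3A and mainly represses. Several members are short-lived early response genes that cells switch on after serum, stress or hormones, and in glioma cells KLF4, KLF6 and KLF9 have been studied for growth and stem-like behaviour.

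Each library carried between 14331617 and 21836186 reads in exons, and the lowest total belonged to metformin replicate 1. That library stood apart. Reads across splice junctions made up 38.1% of its exon reads, against 45.7% to 48.1% in the other metformin libraries and 44.7% to 46.7% in the controls, and several members fell to their lowest level in it. Several of the results are therefore also given without it. Of the markers of a glioblastoma line, VIM, CD44, NES, EGFR and OLIG2 were present. SOX2 and GFAP were under 1 TPM (a transcript level scaled for length and library total) in every library. So was CDKN2A, whose products the study lists as deleted in LN229. Of 11 markers of other cells, 8 were under 1 TPM in every library, and the rest were KRT18, CD68 and RBFOX3. The sum of that list, nearly all of it the keratin KRT18, was 981 to 1117 TPM in controls and 1365 to 1569 TPM in metformin. The immune marker CD68 had a mean of 21.7 TPM in controls and 20.6 TPM in metformin. The neuronal marker RBFOX3 had 6.31 and 4.20 TPM and was called lower (limma adjusted p = 0.0077). KRT18 was called higher (log2 difference 0.47, limma adjusted p = 2.3e-05) and CD68 was not called. Of 5 tested glioblastoma markers 3 were called lower, against 41.8% of all tested genes. These were OLIG2 (-0.99), EGFR (-1.27) and NES (-0.51), with limma adjusted p of 2.2e-05, 0.027 and 0.031. VIM and CD44 were not called. The part of the marker genes in the results was not tested.

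In TPM, KLF5, KLF4 and KLF9 rose and KLF2 fell, while the other 6 members did not pass the test (limma on log2(TPM + 1), Benjamini-Hochberg adjusted p under 0.05). KLF5 had the largest change of the 10. The 3 members called higher and the 1 called lower compare with 8.00% of 11306 tested genes called higher and 41.8% called lower. The median difference of all tested genes was itself -0.37 on the log2 scale, and that of the 10 members was -0.05. When the libraries were brought to a common median ratio instead, the median of all genes was 0.01 and that of the members 0.36, KLF2 no longer passed, and KLF11 did. That made 4 members higher and 0 lower, against 22.7% of genes called higher and 25.9% lower, as edgeR on exon reads also gave (24.5% and 26.0% of genes). In TPM without metformin replicate 1, 4 members were higher and 1 lower, against 17.1% and 49.3% of genes, and edgeR on exon reads without it called 7 higher and 1 lower, against 32.4% and 34.3% of genes. In bulk RNA, fewer cells that express a gene and less of its RNA per cell cannot be told apart.

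**Figure D1:**
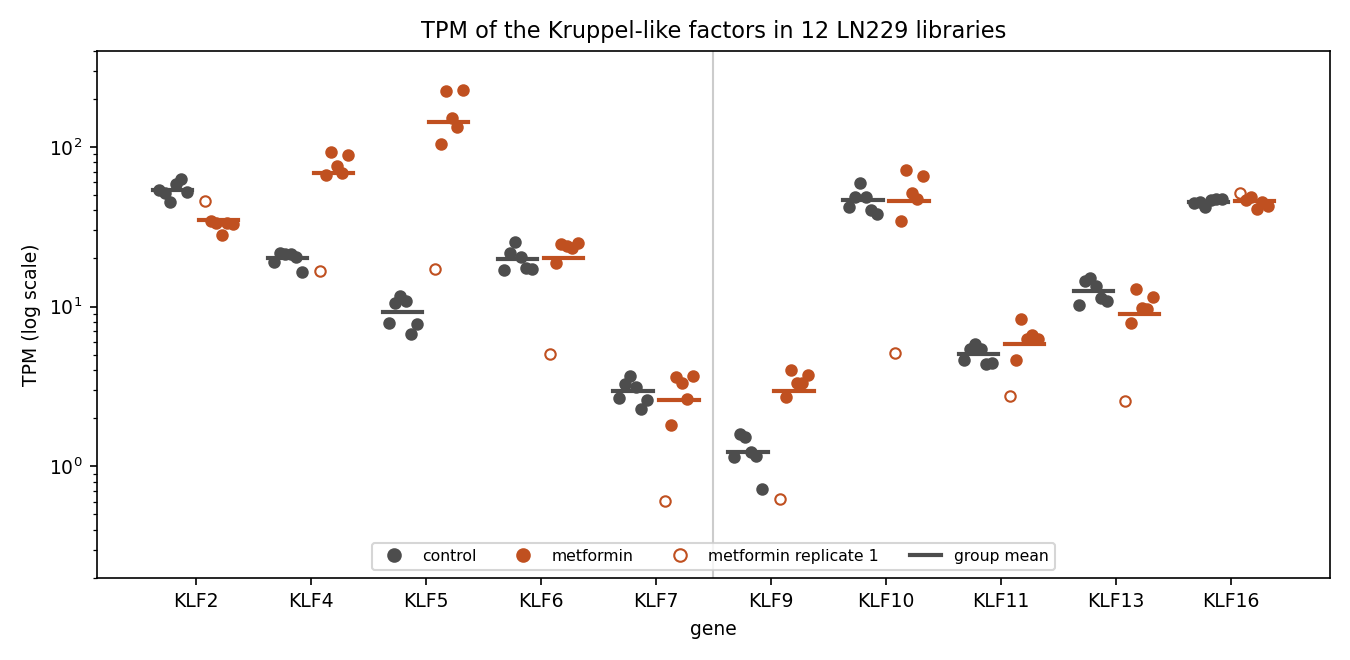
TPM (log axis) of each member in the 6 control (grey) and 6 metformin (orange) libraries, with lines at the group means, activators to the left and SIN3A-binding members to the right of the vertical line. The open point is metformin replicate 1, which is the lowest metformin library for every member except KLF2 and KLF16, where it is the highest.

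KLF5, a driver of proliferation in epithelial and smooth muscle cells (ENSG00000102554, chromosome 13, 73054976 to 73077541, plus strand), ran from 6.75 to 11.6 TPM in the controls with a median of 9.17, and from 17.2 to 226 TPM under metformin with a median of 142. It was the 1 member whose groups did not overlap, as 4.69% of tested genes did in the higher and 37.3% in the lower direction. With metformin replicate 1 left out, KLF5, KLF4 and KLF9 lay wholly above the controls and KLF2 wholly below, as 11.0% and 39.3% of genes did. The log2 difference of KLF5 was 3.48 (standard error 0.51, limma adjusted p = 0.00012), rank 6 from the highest of 11306 genes. The lowest metformin library, replicate 1 at 17.2 TPM, was followed by replicate 2 at 104 TPM. Without replicate 1 the metformin mean was 167 ± 54.7 TPM (SD, n = 5) and the log2 difference 4.00, and edgeR on the exon reads of all libraries gave 4.21.

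KLF4, a factor best known for its place in reprogramming to pluripotency (ENSG00000136826, chromosome 9, 107484852 to 107490482, minus strand), had 16.5 to 21.5 TPM in controls with a median of 20.8, and 16.6 to 92.9 TPM in metformin with a median of 72.2. The groups overlapped only through metformin replicate 1 (16.6 TPM), since the other 5 libraries held 66.6 TPM or more. The log2 difference was 1.55 (standard error 0.34, limma adjusted p = 0.0023), and 1.91 without replicate 1.

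KLF9, a glucocorticoid-inducible repressor (ENSG00000119138, chromosome 9, 70384597 to 70414624, minus strand), was the lowest member in the controls. It had 0.72 to 1.60 TPM there with a median of 1.20, and 0.62 to 4.01 TPM in metformin with a median of 3.32. Again the overlap came from replicate 1, and the other metformin libraries began at 2.73 TPM. Its log2 difference was 0.75 (standard error 0.24, limma adjusted p = 0.021), and 0.99 without replicate 1 (limma adjusted p = 5.8e-06). At so low a level the added 1 TPM shrinks the fold, and edgeR on exon reads gave a log2 difference of 1.58 (adjusted p = 0.00012).

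KLF2, the factor that keeps endothelial cells and T cells quiescent (ENSG00000127528, chromosome 19, 16324817 to 16327874, plus strand), was the highest member in the controls at 45.2 to 63.1 TPM with a median of 52.9. In metformin it had 28.1 to 45.6 TPM with a median of 33.4. Here replicate 1 was the highest metformin library, and 5 of the 6 lay below every control. The log2 difference was -0.63 (standard error 0.12, limma adjusted p = 0.00057). The call depended on the scaling, with -0.22 (adjusted p = 0.50) after median-ratio scaling and -0.13 (adjusted p = 0.71) in edgeR. Without metformin replicate 1 it held under both limma (-0.72, adjusted p = 6.4e-06) and edgeR (-0.50, adjusted p = 0.0024).

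The promoters of these 4 called members are shown because members of the family bind such stretches, often in each other's genes. Each line is a RefSeq window of 300 bases (GRCh38.p14) around a transcript start, most of it upstream, 5′ to 3′ on the gene's strand. Capitals mark CACCC or its reverse complement GGGTG, and the GC box GGGCGG or its reverse complement CCGCCC. KLF5 has 2 annotated starts.
KLF5, upstream start, chr13:73054726-73055025, plus strand: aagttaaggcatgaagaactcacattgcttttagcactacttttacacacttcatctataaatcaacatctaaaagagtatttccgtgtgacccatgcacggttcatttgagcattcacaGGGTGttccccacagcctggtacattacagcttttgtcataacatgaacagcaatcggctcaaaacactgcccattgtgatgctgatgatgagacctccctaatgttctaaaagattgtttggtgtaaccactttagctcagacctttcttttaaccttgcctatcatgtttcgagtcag
KLF5, downstream start, chr13:73058755-73059054, plus strand: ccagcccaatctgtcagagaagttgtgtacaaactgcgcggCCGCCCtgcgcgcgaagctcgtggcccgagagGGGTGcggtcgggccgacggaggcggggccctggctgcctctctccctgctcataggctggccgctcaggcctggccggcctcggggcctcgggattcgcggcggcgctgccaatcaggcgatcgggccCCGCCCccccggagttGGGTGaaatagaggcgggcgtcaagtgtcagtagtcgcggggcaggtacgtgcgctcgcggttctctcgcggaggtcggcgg
KLF4, chr9:107489720-107490019, minus strand: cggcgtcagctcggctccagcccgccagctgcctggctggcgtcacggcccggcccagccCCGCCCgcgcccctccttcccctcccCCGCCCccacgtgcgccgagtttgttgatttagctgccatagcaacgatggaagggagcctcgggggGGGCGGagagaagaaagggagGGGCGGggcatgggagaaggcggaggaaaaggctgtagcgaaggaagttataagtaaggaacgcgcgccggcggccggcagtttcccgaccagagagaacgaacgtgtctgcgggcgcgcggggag
KLF9, chr9:70414608-70414907, minus strand: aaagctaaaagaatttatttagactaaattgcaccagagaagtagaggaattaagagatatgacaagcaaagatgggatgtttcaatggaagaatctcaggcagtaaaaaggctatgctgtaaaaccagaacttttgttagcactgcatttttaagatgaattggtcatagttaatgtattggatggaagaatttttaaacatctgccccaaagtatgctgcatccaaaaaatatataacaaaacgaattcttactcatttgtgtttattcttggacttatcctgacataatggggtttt
KLF2, chr19:16324576-16324875, plus strand: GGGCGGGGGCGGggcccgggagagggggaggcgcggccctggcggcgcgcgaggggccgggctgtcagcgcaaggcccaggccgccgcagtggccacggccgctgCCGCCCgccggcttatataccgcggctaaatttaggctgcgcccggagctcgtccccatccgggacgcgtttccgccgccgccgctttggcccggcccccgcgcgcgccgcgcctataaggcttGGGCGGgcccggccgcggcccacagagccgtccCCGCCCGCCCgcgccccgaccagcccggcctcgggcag

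The 4 genes share no one layout in these windows. KLF2 and KLF4 held 6 and 4 GC boxes and no CACCC, with a GC content of 80.7% and 69.0%. The downstream KLF5 start had 2 of each and 71.3% GC, while the upstream start had 1 CACCC, no GC box and 40.7% GC. KLF9 held neither motif in a window of 32.7% GC, against a median of 58.7% over all windows. Among 35116 RefSeq windows on chromosomes other than 8, 59.9% held CACCC on either strand and 45.0% held the GC box. The cyclic AMP response half-site TGACG, found in 24.6% of windows, occurred 2 times in KLF4 and 1 time at the downstream KLF5 start, and CCAAT, found in 34.6%, occurred 2 times in KLF9 and 2 times at that same KLF5 start. The AP-1 site TGANTCA, in 7.71% of windows, was in none of the 14 windows that matched 9 members. These matches are letters only, searched on both strands, and no binding was measured.

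The remaining activators were KLF6 and KLF7. KLF6, an early response gene and reported tumour suppressor (ENSG00000067082, chromosome 10, 3775996 to 3785281, minus strand), had 16.9 to 25.6 TPM in controls with a median of 18.9, and 5.05 to 24.9 TPM in metformin with a median of 23.7. KLF7, known for neuronal outgrowth (ENSG00000118263, chromosome 2, 207074137 to 207167267, minus strand), had 2.27 to 3.69 TPM in controls with a median of 2.90, and 0.61 to 3.66 TPM in metformin with a median of 2.99. For both genes the groups overlapped and replicate 1 was the lowest library of all 12. Neither passed the test, with log2 differences of -0.11 for KLF6 (limma adjusted p = 0.79) and -0.20 for KLF7 (limma adjusted p = 0.50), and both signs turned positive after median-ratio scaling (0.28 and 0.06) and without replicate 1 (0.22 and 0.01).

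Among the SIN3A-binding members other than KLF9, KLF10, a gene induced early by TGF-beta (ENSG00000155090, chromosome 8, 102648784 to 102655725, minus strand), had the widest spread. Its controls ran from 38.0 to 59.8 TPM with a median of 45.3, and its metformin libraries from 5.09 to 71.4 TPM with a median of 49.2. Replicate 1 at 5.09 TPM was far below the next library at 34.5 TPM. The log2 difference was -0.33 (limma adjusted p = 0.60), and without that replicate it was 0.19 (adjusted p = 0.34). In edgeR on exon reads without that replicate KLF10 was called higher (0.46, adjusted p = 0.0056), and so was KLF6 (0.47, adjusted p = 5.7e-05).

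KLF11, the nearest relative of KLF10 (ENSG00000172059, chromosome 2, 10042849 to 10054836, plus strand), had 4.37 to 5.85 TPM in controls with a median of 5.04, and 2.74 to 8.37 TPM in metformin with a median of 6.23. In KLF11, 4 of the 6 metformin libraries lay above every control. Its log2 difference was 0.13 (limma adjusted p = 0.60), but it passed after median-ratio scaling (0.47, adjusted p = 0.00032), in edgeR (0.55, adjusted p = 0.00048) and, just, without metformin replicate 1 (0.29, adjusted p = 0.0496).

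KLF13, a regulator of the chemokine CCL5 in T cells (ENSG00000169926, chromosome 15, 31326835 to 31435665, plus strand), had 10.3 to 15.1 TPM in controls with a median of 12.4, and 2.55 to 12.8 TPM in metformin with a median of 9.73. The groups overlapped and the log2 difference was -0.54 (limma adjusted p = 0.13). In RPKM, which is scaled for length and depth only, it was -0.43 (adjusted p = 0.042). KLF16 (ENSG00000129911, chromosome 19, 1852399 to 1863579, minus strand) had the narrowest relative spread in unscaled TPM, at 41.9 to 47.1 TPM in controls with a median of 45.8, and 40.8 to 51.2 TPM in metformin with a median of 45.9. Its log2 difference was 0.01 (standard error 0.07, limma adjusted p = 0.89). After median-ratio scaling it was 0.43 (adjusted p = 0.094), and KLF16 was called higher in DESeq2 (0.53, adjusted p = 0.040) and in edgeR without metformin replicate 1 (0.22, adjusted p = 0.038).

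**Figure D2:**
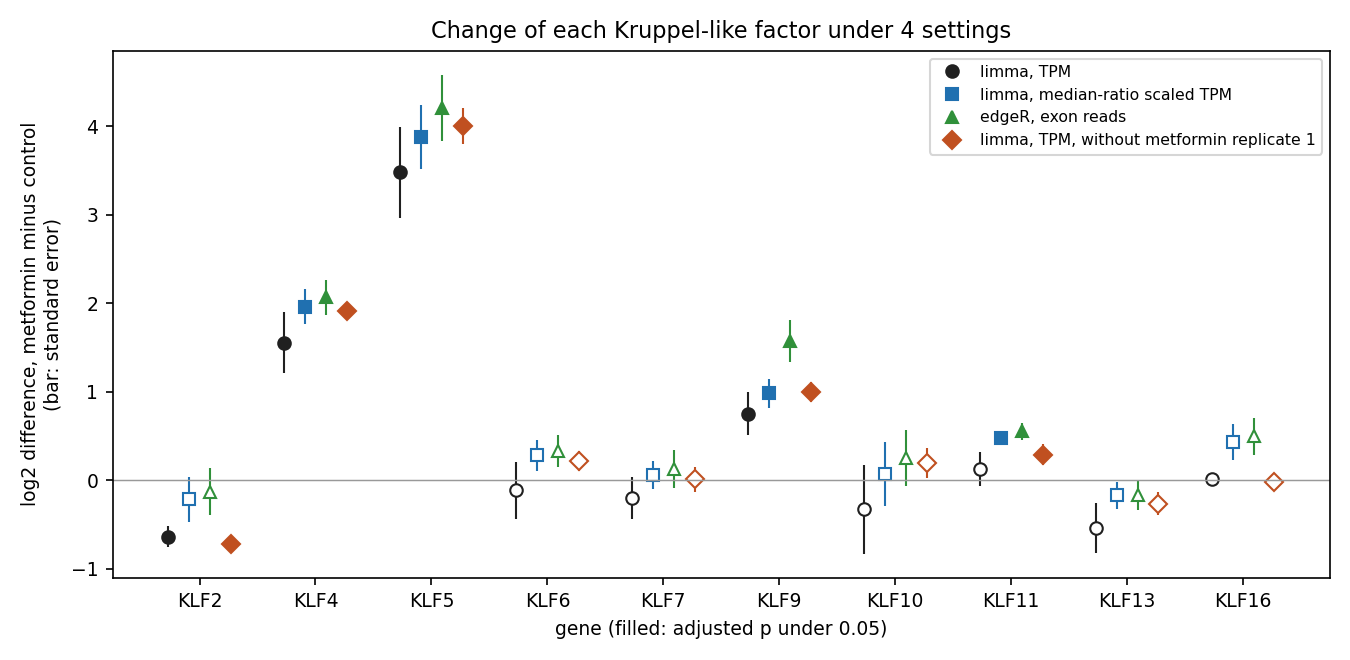
Log2 difference, metformin minus control, of each member with its standard error under 4 settings, filled where the adjusted p was under 0.05. KLF5, KLF4 and KLF9 are filled and above 0 in each setting, KLF2 is filled only in the unscaled TPM fits, and KLF11 is filled in 3 of the 4.

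The order of the members by TPM differed between the groups. In controls the means fell from KLF2 (54.0 ± 6.18 TPM, SD, n = 6) through KLF10, KLF16, KLF4, KLF6, KLF13, KLF5, KLF11 and KLF7 to KLF9 (1.23 ± 0.32 TPM). The ranges of KLF2 and KLF10, of KLF10 and KLF16, of KLF4 and KLF6, and of KLF13 and KLF5 overlapped. Within single control libraries KLF13 was above KLF5 in all 6 and KLF2 above KLF10 in 5, while KLF10 was above KLF16 in 3 and KLF4 above KLF6 in 3. In metformin KLF5 was first (142 ± 78.4 TPM) and KLF4 next (68.2 ± 27.5 TPM), and KLF9 and KLF7 were last. The ranges of all neighbours overlapped there except those of KLF2 and KLF6. Without metformin replicate 1 the order of means was the same, and the ranges of KLF5 and KLF4, KLF16 and KLF2, KLF2 and KLF6, KLF6 and KLF13, and KLF11 and KLF9 did not overlap. Within each library KLF5 was above KLF4 in all 6 metformin libraries.

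As a share of the summed TPM of the 10 members, KLF5 went from 4.24% ± 0.70 (SD, n = 6) in controls to 34.2% ± 11.9 in metformin. KLF4 went from 9.24% ± 0.46 to 17.5% ± 3.25, and KLF2 from 25.1% ± 3.42 to 11.8% ± 9.54. The summed level was 216 ± 14.3 TPM in controls and 377 ± 137 TPM in metformin. In metformin replicate 1 the sum was 147 TPM, below every control, and in the other 5 it was 322 to 522 TPM, above every control.

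Reads in introns come largely from RNA that is not yet spliced and give a readout separate from exon reads. The deposited tables count them per gene. Of the members, 8 had enough intron reads to test, and KLF11 and KLF13, with 0 to 10 and 0 to 19 per library, did not. The minimum was a mean of 10 reads over all libraries, which KLF9 reached only through metformin, and KLF6 and KLF10 only through the controls. KLF9 and KLF5 rose in intron reads and KLF6 and KLF10 fell (edgeR, adjusted p under 0.05), 2 of 8 members each way against 31.3% of 11118 tested genes called higher and 30.2% lower.

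KLF9 had almost no intron reads in the controls. Its 24853 bases of intron held 0, 0, 0, 1, 1 and 2 reads in control replicates 1 to 6, and 64, 72, 96, 62, 61 and 92 reads in metformin replicates 1 to 6. In sum 4 intron reads stood against 447, and even metformin replicate 1, low in KLF9 exon reads, was far above every control. Per exon read of the library, the groups did not overlap, as in 8.01% of genes in the higher direction. Per exon read of the libraries the ratio of these sums was 127 (95% exact binomial interval 49.4 to 469.5, counting error only). KLF9 passed the test with the minimum of 10 reads (edgeR adjusted p = 3.1e-08) and with no minimum (adjusted p = 1.8e-09). The fitted log2 difference of 6.96 rests on 4 control reads, so it depends on the count the fit adds and does not fix the size of the change.

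Exon reads of KLF9 moved far less. They numbered 32 to 63 in controls with a median of 52, and 24 to 141 in metformin with a median of 126. Intron reads were 0 to 6.25% of exon reads in controls and 48.8% to 267% in metformin, the highest value being that of replicate 1. The log2 intron to exon ratio differed by 5.33 with 0.5 added to each count (limma adjusted p = 2.9e-05) and by 3.93 with 2 added (adjusted p = 1.6e-05). The call held under both, but the size depended on the added count, since 3 controls had 0 intron reads. Junction reads stayed scarce, 0 to 3 per control library and 0 to 5 per metformin library, and were too few to test.

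The neighbourhood of KLF9 bears on how its intron reads can be read. The nearest gene of the tables on its 3′ side is SMC5, a chromosome maintenance gene on the opposite strand that ends 29724 bases away and points towards KLF9. SMC5 had 28.8 ± 8.999 TPM in controls and 25.6 ± 11.98 TPM in metformin, and its own intron reads, 1110 and 943 in sum, did not pass the test (log2 difference 0.16, edgeR adjusted p = 0.44). Upstream on the same strand, TRPM3 had 10 and 7 exon reads in sum and 223 and 64 intron reads. The KLF9 body has no other GENCODE 29 gene, and the RefSeq divergent transcript KLF9-DT reaches only its first exon. No source used here says whether reads were counted by strand, so the strand of the KLF9 intron reads is not known and the part of transcripts from either side was not tested.

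**Figure D3:**
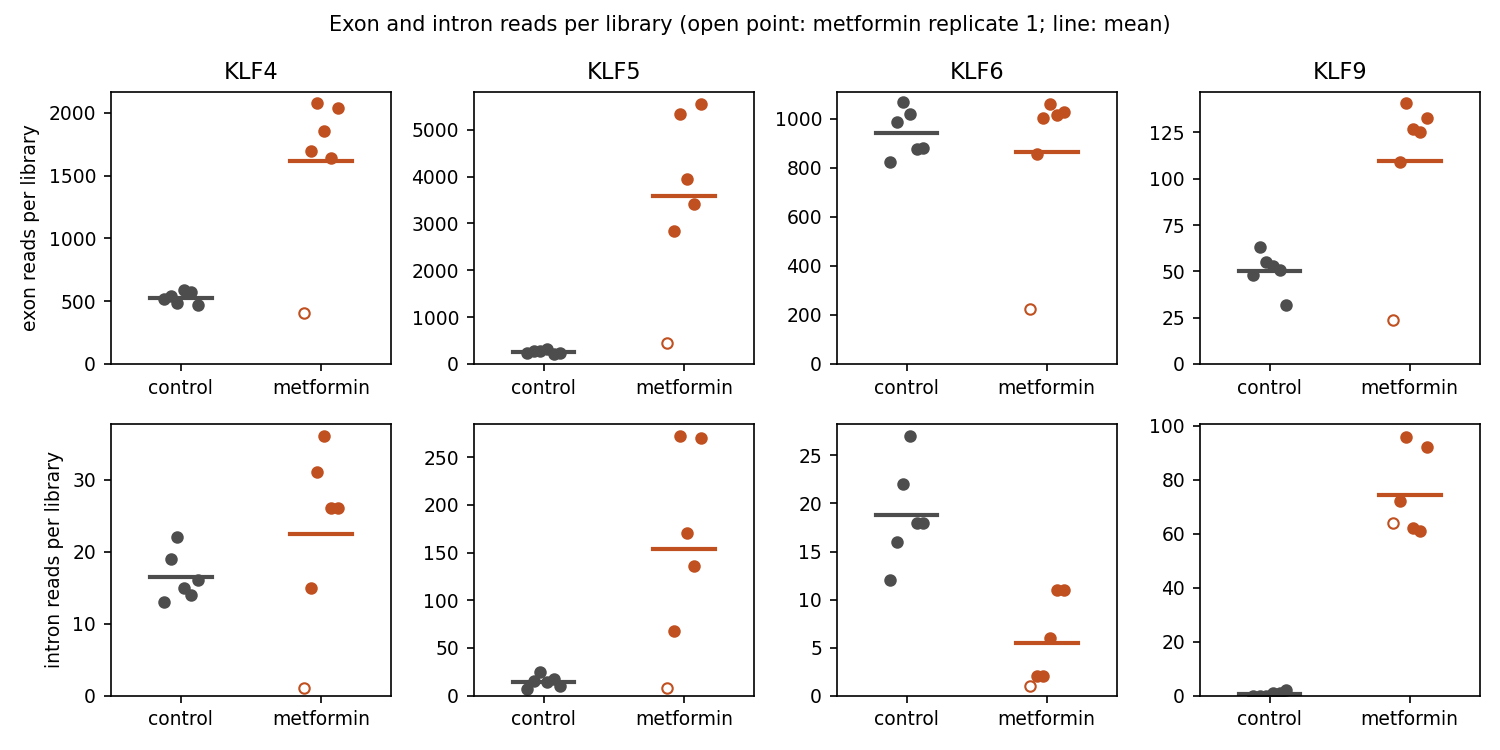
Exon reads (top row) and intron reads (bottom row) per library of KLF4, KLF5, KLF6 and KLF9, in controls (grey) and metformin (orange), with lines at the means and an open point for metformin replicate 1. KLF9 intron reads are 0 to 2 in the controls and 61 to 96 in metformin, and KLF6 intron reads are lower in every metformin library while its exon reads overlap.

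KLF5 rose in introns as in exons. Its intron reads numbered 7 to 25 in controls with a median of 14.5, and 8 to 272 in metformin with a median of 153.5, the 8 being replicate 1. The log2 difference was 3.56 (standard error 0.45, edgeR adjusted p = 9.1e-06), and the log2 intron to exon ratio differed by -0.64 (limma adjusted p = 0.15), a difference that passed with sample medians subtracted (-0.77, adjusted p = 0.034). KLF4, in contrast, had few added intron reads. It held 13 to 22 in controls with a median of 15.5, and 1 to 36 in metformin with a median of 26, a log2 difference of 0.69 (edgeR adjusted p = 0.056). That difference passed without metformin replicate 1 (0.84, edgeR adjusted p = 0.00049). With all libraries it passed in DESeq2 (0.71, adjusted p = 0.018). It also passed in edgeR when intron reads were scaled by exon read totals (0.88, adjusted p = 0.047). In edgeR it did not pass with no minimum (0.67, adjusted p = 0.083) or with a replicate block (0.60, adjusted p = 0.14).

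The ratio of intron to exon reads was called in 4 of 8 members, higher in KLF9 and lower in KLF6, KLF4 and KLF10, against 18.4% of 10363 genes called higher and 13.6% lower. In all 3 members called lower the percentages did not overlap between groups, as in 9.55% of genes, while those of KLF9 did not overlap in the higher direction, as in 10.7%. KLF6 intron reads were 1.45% to 2.64% of exon reads in controls and 0.20% to 1.08% in metformin (log2 difference -1.79, limma adjusted p = 0.0030). KLF4 had 2.46% to 4.499% and 0.24% to 1.94% (-1.49, limma adjusted p = 0.0074). KLF10 had 0.99% to 1.88% and 0 to 0.90% (-1.06, limma adjusted p = 0.012). The median difference of all genes in this ratio was 0.11. All 4 calls remained with any 1 library left out. The 8 members were those tested in intron reads, so the same read minimum stood behind the ratio. KLF9 reached that minimum only through metformin, and KLF6 and KLF10 only through the controls, which favoured calls in the directions found. KLF4 reached it in both groups. The ratio was not tested without the minimum, so its part in the calls of KLF9, KLF6 and KLF10 is not known.

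KLF6 was called in introns and not in TPM. Its intron reads were 12 to 27 in controls with a median of 18 and 1 to 11 in metformin with a median of 4, with no overlap, which 24.3% of genes showed in this direction per exon read of the library (log2 difference -1.46, standard error 0.35, edgeR adjusted p = 0.0024). KLF10 held 13 to 30 intron reads in controls and 0 to 15 in metformin (-0.80, edgeR adjusted p = 0.045). That call was lost when any of control replicates 2, 3, 5 and 6 or metformin replicates 2, 4 and 5 was left out, with adjusted p between 0.055 and 0.098. It was also lost when intron reads were scaled by exon read totals (-0.61, adjusted p = 0.19) and with no minimum (-0.82, adjusted p = 0.0501). KLF2 fell just short, with 26 to 38 and 5 to 25 intron reads (-0.69, edgeR adjusted p = 0.052), and passed without control replicate 3 (-0.77) or metformin replicates 1 (-0.66), 2 (-0.92) or 3 (-0.79). With all libraries KLF2 passed in DESeq2 (-0.68, adjusted p = 0.040) and in edgeR with no minimum (-0.72, adjusted p = 0.048). In edgeR it did not pass when scaled by exon read totals (-0.51, adjusted p = 0.11) or with a replicate block (-0.72, adjusted p = 0.094). KLF7 (-0.34, edgeR adjusted p = 0.17) and KLF16 (-0.41, edgeR adjusted p = 0.26) did not pass.

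**Figure D4:**
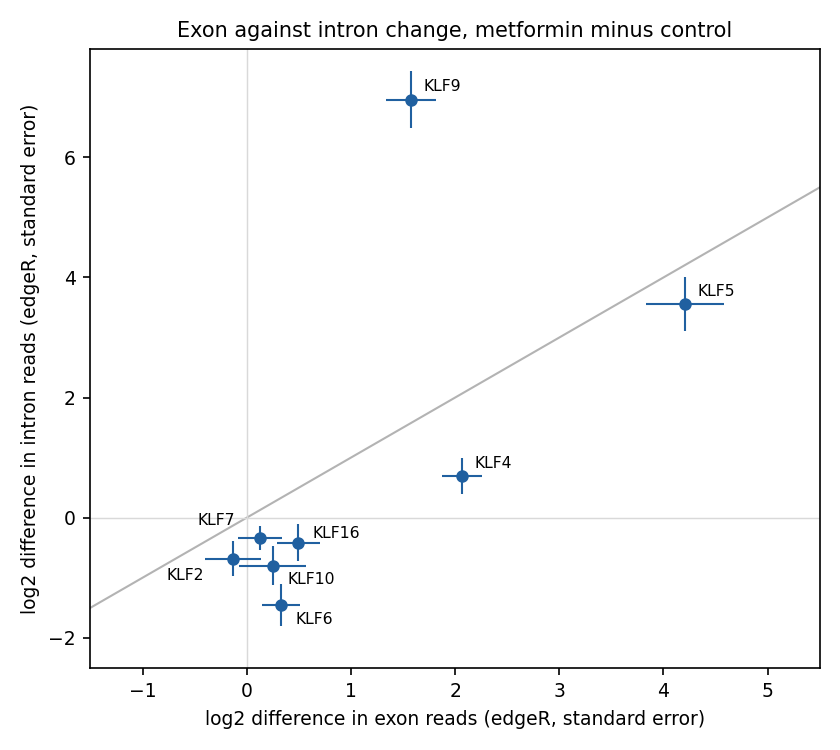
Log2 difference in intron reads against that in exon reads for the 8 members with enough intron reads, both from edgeR with standard errors, and a line where both would be equal. KLF9 lies above the line at 1.58 and a fitted 6.96 that rests on 4 control intron reads, and the other 7 members, KLF5 at 4.21 and 3.56 included, lie below it.

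The share of exon reads that cross a splice junction was called in 0 of 8 members tested, and in 9 of 10426 genes (0.0863%, limma adjusted p under 0.05). Of the members, none had an unadjusted p under 0.05 either. In most libraries the share was alike, for example 16.7% to 21.9% in the controls and 18.5% to 23.0% in 5 metformin libraries for KLF4. Metformin replicate 1 was the exception, with 2.20% for KLF4, 1.38% for KLF10, 0.26% for KLF16 and 0 of 225 exon reads for KLF6. The low share in that library was not limited to the members. Over all tested genes the median log2 share was -2.84 there, against -1.51 to -1.24 in the other metformin libraries. In controls that median was -1.44 to -1.21. The median difference of all genes between the groups was -0.21.

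The genes whose levels ran most like a called member over the 12 libraries, among 7360 genes with a mean of at least 10 TPM, were found by Pearson correlation of log2(TPM + 1). The points share their libraries and the low replicate 1, so the values are descriptions. For KLF5 they were GFPT2, a hexosamine pathway enzyme (r = 0.999), BCL2L11, the pro-apoptotic BIM (0.999), and SLC38A2, a neutral amino acid transporter (0.997). For KLF4 they were ATP1B1 (0.996), a sodium pump subunit, INSIG1 (0.995), a brake on sterol synthesis, and ERRFI1 (0.994), an inhibitor of the EGF receptor. KLF9 ran with PSAP, DNAJB4 and NEDD4L (0.990 each, among 7361 genes). KLF2 ran with NTMT1 (0.978), H1-10 (0.972) and MOK (0.971).

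The rest of the family was mostly too low to test. Of the other 8 KLF genes only KLF3, which recruits the corepressor CTBP, passed the level filter. It had 8.21 ± 1.53 TPM in controls and 13.5 ± 5.80 TPM in metformin (log2 difference 0.50, limma adjusted p = 0.24), and it passed after median-ratio scaling (0.87) and without metformin replicate 1 (0.84). Its intron reads rose (log2 difference 1.69, edgeR adjusted p = 0.00054). KLF15 had 201 exon reads in sum in controls and 32 in metformin, and its intron reads fell by 2.53 on the log2 scale (edgeR adjusted p = 6.1e-05). KLF8 went from 350 to 112 exon reads and KLF17 from 21 to 118, with no test. Of the related SP factors, 1 of 5 tested passed, SP6, which was higher (0.41, limma adjusted p = 0.039). That is 1 higher and 0 lower, against 8.00% and 41.8% of all genes. After median-ratio scaling 2 were higher and 0 lower (22.7% and 25.9% of all genes). In TPM without metformin replicate 1, 3 were higher and 1 lower (17.1% and 49.3% of all genes).

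The genes around the members fell into 6 further lists, whose counts stand against the 8.00% of all genes called higher and 41.8% called lower, or 22.7% and 25.9% after median-ratio scaling. In the MEKK to ERK5 to MEF2 path that switches on KLF2 and KLF4, 0 of 6 tested genes were called higher and 2 lower (8.00% and 41.8% of all genes). These were the kinases MAP2K5 (log2 difference -0.69, limma adjusted p = 0.0014) and its substrate MAPK7, which is ERK5 (-0.59, limma adjusted p = 0.0037). After median-ratio scaling 2 were higher and 1, MAP2K5, lower. In the glucocorticoid list, upstream of KLF9, 4 genes were tested, the receptor included. The receptor NR3C1 fell by 0.98 (limma adjusted p = 0.028) and 2 of its known targets rose. These were PER1, by 1.35 (limma adjusted p = 7.8e-06), and TSC22D3, by 0.51 (limma adjusted p = 0.0016). The target FKBP5 did not pass and its difference was negative (-0.53, limma adjusted p = 0.13), and ZBTB16 was too low to test. The calls of NR3C1, PER1 and TSC22D3 were the same after scaling.

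Of 9 corepressor genes, 2 were higher and 5 lower (8.00% and 41.8% of all genes), and 4 higher and 1 lower after median-ratio scaling (22.7% and 25.9%). SAP30 and SAP18, subunits of the SIN3 complex, rose from 25.01 ± 1.53 to 40.9 ± 1.77 TPM and from 136 ± 4.94 to 220 ± 22.04 TPM (limma adjusted p = 4.6e-06 and 8.6e-06). CTBP2 fell by 0.66 and CTBP1 by 0.45 on the log2 scale (limma adjusted p = 0.00073 and 0.0019), and CTBP1 did not pass after scaling (-0.04). Of 6 coactivators, none was called higher and 2 lower, WDR5 (-0.74) and KAT2A (-0.49), against 8.00% and 41.8% of all genes. After median-ratio scaling 2 were higher and 1 lower (22.7% and 25.9%), and KAT2A did not pass (-0.06). Without metformin replicate 1, 2 were higher and 3 lower in TPM (17.1% and 49.3% of all genes).

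Among 10 ubiquitin ligase genes reported to act on members of the family, 1 was higher and 4 lower, near the 8.00% and 41.8% of all genes, and 2 and 4 after scaling (22.7% and 25.9%). FBXO32 rose from 1.82 ± 0.27 to 10.1 ± 3.17 TPM (log2 difference 1.92, limma adjusted p = 4.5e-06). FZR1, an activator of the anaphase-promoting complex, fell from 29.1 ± 2.69 to 11.1 ± 0.96 TPM (-1.32, limma adjusted p = 1.6e-07), with ITCH at -0.91 and BTRC at -0.61 also lower. WWP1, the ligase best known for KLF5, did not pass (-0.89, limma adjusted p = 0.058).

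Of 18 genes reported as targets of one or another member, 15 were tested, 5 called higher and 4 lower (8.00% and 41.8% of all genes), and 9 and 2 after median-ratio scaling (22.7% and 25.9%). CDKN1A, the cell cycle inhibitor p21 that KLF4 and KLF6 activate, rose from 346 ± 6.79 to 936 ± 73.7 TPM (log2 difference 1.43, limma adjusted p = 4.6e-09). PDGFA, a growth factor gene activated by KLF5, rose from 13.5 ± 0.94 to 35.0 ± 6.73 TPM (1.29, limma adjusted p = 7.5e-06). PLAU, the urokinase gene, fell from 530 ± 21.9 to 247 ± 59.8 TPM (-1.14, limma adjusted p = 7e-05). ENG fell by 0.59 (limma adjusted p = 0.0008), a call that did not hold after scaling (-0.16).

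**Figure D5:**
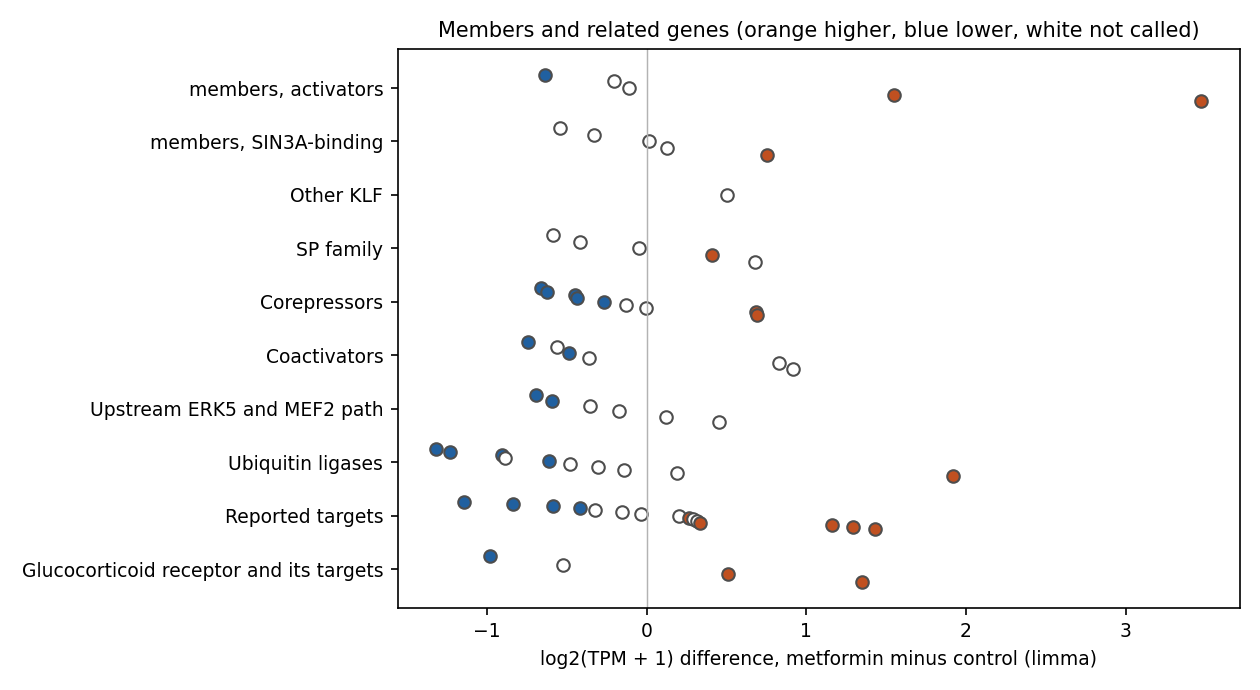
Log2(TPM + 1) difference, metformin minus control, of each tested member and related gene by list, 1 point per gene, orange where called higher, blue where called lower and white where not called (limma). KLF5 at 3.48 lies furthest to the right of all points, and FBXO32 at 1.92 is the next.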

How the data were processed

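The authors deposited 1 per-gene table per library with TPM, RPKM and raw counts of reads in exons, across exon junctions and in introns, and a fraction of intron reads that was not used. Aligner, counter and strand setting were not given in the sources used here. Builds named in the submitters' notes are GRCm38 and mm10, yet the gene IDs and symbols are human, and 6 of the 10 members have the start and end that GENCODE 29 gives on the human genome. Coordinates of genes are those of the tables. All exon reads of the members were uniquely mapped. Rows that share a symbol were summed.

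TPM was tested with limma 3.58.1 (trended empirical Bayes) on log2(TPM + 1) over genes with a mean of at least 1 TPM. Intron counts were tested with edgeR 4.0.16 (quasi-likelihood, TMM) over genes with a mean of at least 10 reads. The intron to exon and junction to exon ratios were tested with limma on log2 values with 0.5 added to each count. Every p was adjusted over all genes tested (Benjamini-Hochberg), with 0.05 as the threshold. R 4.3.3 was used, and the code was tested on simulated data. Alternatives were another pseudocount, filter or scaling, RPKM, edgeR and DESeq2 1.42.0 on exon counts, a replicate block, and leaving out each library. The members and lists were chosen with earlier results of these data known. All members were named, with up to 4 called genes per list, those of smallest limma p, and up to 3 genes most alike each member called. KLF3, KLF8, KLF15, KLF17, WWP1, SMC5, TRPM3, FKBP5, ZBTB16, CD68 and RBFOX3 were named after their values were seen. Replicates of a group differed by more than sampling noise. The deposited counts are reads without molecular identifiers. The KLF10 promoter is not reported here.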

Additional observations from a re-analysis of the deposited data

Results flagged for a closer look

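Among 60 groups of 6 values looked at for the members, 9 held a library far from its group, where chance gives about 3, since it marks about 1 group in 20. Metformin replicate 1 was that library in 8 of the 9. In TPM it was the highest metformin library for KLF2 (45.6) and the lowest for KLF4 (16.6) and KLF6 (5.05). In the percentage of exon reads that cross a junction it was the lowest metformin library for KLF2 (7.29%), KLF4 (2.20%), KLF5 (6.17%), KLF10 (1.38%) and KLF16 (0.26%). The remaining one was KLF5 in control replicate 2, the highest control at 13.1% of exon reads across a junction. Metformin replicate 1 also had the fewest exon reads of all libraries (14331617) and the lowest junction percentage over all genes (38.1%), and their part in these values was not tested.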

How the results depend on the processing

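KLF5 and KLF4 kept their direction and their call in TPM under every alternative run, and so did KLF9 wherever it was tested, since a minimum of 5 TPM left it out. KLF2 kept its direction and lost its call under median-ratio scaling (-0.22), quantile normalization (-0.38), edgeR (-0.13) and DESeq2 (-0.09), all on the log2 scale. edgeR without metformin replicate 1 called 8 members in exon reads, 7 higher and 1 lower, where 4 were called by edgeR on all libraries and 5 by limma without that replicate.

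The genes called higher in TPM numbered 905, and 1642 with no filter, 2570 with median-ratio scaling, 2342 with quantile normalization, 2768 with edgeR, 3267 with DESeq2 and 3666 with edgeR without metformin replicate 1 (3878 lower). Those called lower numbered 4725, and 2927, 3073, 2937 and 2987 with median-ratio scaling, quantile normalization, edgeR and DESeq2. With 1 library left out the higher calls ran from 811 to 1933 and the lower from 4157 to 5574, and the members called from 4 to 5. For the intron to exon ratio a minimum of 50 reads left 802 lower calls in place of 1409, and 0 members called because 1 was left to test. With 1 library left out the ratio had 1494 to 3503 higher and 1153 to 2217 lower calls, the highest of each without metformin replicate 1. For the junction share, 6 higher and 3 lower calls became 3 and 8 with sample medians subtracted, and 7 and 1 at a minimum of 50 reads. With 1 library left out they ran from 1 to 222 higher and from 1 to 111 lower, the 222 and 111 without metformin replicate 1. Intron read calls ranged from 3127 to 4052 higher and 3149 to 4227 lower with 1 library left out, and members called in introns from 3 to 6.

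Signs turned only for members not called in that readout before any alternative was applied. In edgeR without metformin replicate 1 the turned differences of KLF6 and KLF10 were themselves called higher (edgeR adjusted p = 5.7e-05 and 0.0056). In TPM, under median-ratio scaling, quantile normalization, edgeR, DESeq2, edgeR without metformin replicate 1 and limma without it, the log2 difference was 0.28, 0.33, 0.33, 0.36, 0.47 and 0.22 for KLF6, was 0.062, 0.24, 0.13, 0.16, 0.27 and 0.014 for KLF7, and was 0.070, 0.016, 0.25, 0.28, 0.46 and 0.19 for KLF10. With 1 library left out the TPM difference ranged from -0.20 to 0.22 for KLF6, from -0.29 to 0.014 for KLF7, from -0.52 to 0.19 for KLF10 and from -0.019 to 0.046 for KLF16. In the junction share KLF5 was 0.22 and KLF7 0.11 with sample medians subtracted, and KLF7 was 0.17 with a prior count of 2. With 1 library left out the junction share ranged from -0.55 to 0.11 for KLF4, from -0.052 to 0.13 for KLF5, from -0.33 to 0.30 for KLF7, from -0.62 to 0.076 for KLF10 and from -0.55 to 0.30 for KLF16. The cause of these changes was not tested.

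Whether the replicate numbers pair the cultures is not known, since a correlation of deviations from the group means cannot settle it. The correlation of same-numbered libraries ran from -0.64 to 0.73, and 2 of 6 libraries correlated best with their own number. With the replicate block 915 genes were higher and 4770 lower in TPM, 0 and 0 were called in the junction share, and among members only the KLF10 call in intron reads was lost (adjusted p = 0.055).

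The members held medians of 0.5 to 38 intron reads per control library, which limits the precision of their intron values.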
